A study of Saccharomyces cerevisiae with 39 samples.

Results

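C/D box small nucleolar RNAs (snoRNAs) were followed across budding yeast strains with altered subunits of the RNA exosome. The members were the rows of the count files whose identifier begins with snR, without the 5 spliceosomal snRNAs and the 29 H/ACA box snoRNAs, which left 47 of 8898 features. C/D snoRNAs carry a C box near the 5′ end and a D box near the 3′ end, which are bound by Snu13, Nop56, Nop58 and the methyltransferase Nop1. Most of them base-pair with rRNA and guide 2′-O-methylation, while U3 (encoded by snR17a and snR17b) and U14 (snR128) are needed for cleavage of the rRNA precursor, snR4 and snR45 guide acetylation of 18S rRNA, and snR190 pairs with 25S rRNA sequences in the precursor. Yeast snoRNAs are made from their own promoters, from transcripts shared by several snoRNAs, or from introns, and the nuclear exosome with its nuclease Rrp6 trims their 3′ ends and degrades their precursors.

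RNA from 39 cultures in 13 groups of 3 libraries was sequenced after removal of rRNA. All strains were haploid ura3Δ0 leu2Δ0 his3Δ1, lacked the chromosomal copy of an exosome gene, and carried a low-copy pRS315 plasmid (LEU2, CEN6). Cells were grown in 10 mL of minimal medium lacking leucine at 37 °C for 5 h. The RRP4 and rrp4-G226D groups were MATα lys2Δ0 rrp4Δ::NEO, the RRP40, rrp40-S87A and rrp40-W195R groups MATa rrp40Δ::NEO, and the RRP45 and rrp45-I15P groups MATα rrp45Δ::NEO. RRP46, rrp46-Q86I, rrp46-L127T and rrp46-L191H cells were MATα lys2Δ0 rrp46Δ::kanMX4. RRP6 and rrp6Δ cells were MATa met15Δ0 rrp6Δ::kanMX4, the plasmid of the latter holding no RRP6 gene; another label field calls every strain BY4741. Control and mutant thus shared the chromosomal deletion. For the missense alleles the altered copy on the plasmid was the only source of the subunit, and for rrp6Δ there was none. The labels name no separate colonies or transformants behind the 3 libraries of a group, so p-values measure the spread between these libraries, which may be technical.

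Library totals ran from 17244127 to 53642418 counts, and C/D snoRNAs took 0.991% to 1.63% of them. RRP6 counts in the 3 rrp6Δ libraries were 3.83, 3.13 and 3.17 CPM, against 684, 527 and 692 CPM in the RRP6 control. Counts per gene do not show a missense change, but the RNA of the altered gene differed from its control in 5 alleles. It was higher in rrp46-L191H (RRP46, log2 0.73), rrp4-G226D (RRP4, log2 0.63) and rrp40-W195R (RRP40, log2 0.48). It was lower in rrp46-L127T (RRP46, log2 -0.25) and in rrp46-Q86I, where RRP46 was at 104, 84.1 and 110 CPM against 597, 533 and 554 CPM in its control. Library 1 of rrp46-L127T and library 2 of rrp40-W195R stood apart from their group in several snoRNAs. Calls of the named members that changed without them are given below for comparisons between groups. For tests of the difference between the effects of mutants they are not listed. CPM values (counts scaled to a common library size) use TMM factors over all libraries. A value is relative to the other RNAs in the library, so more of a snoRNA per cell and less of other RNA cannot be told apart. The snR69 row held 0 counts in every library, and whether reads could be assigned to it was not determined, so it gives no level. Of the rest, all 46 members passed the filter on low counts in each comparison, except in rrp40-S87A against RRP40, where snR73 did not and 45 were tested.

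Sequences are shown for the snoRNAs on which the results turn, from the R64 reference (RefSeq), read 5′ to 3′ on the RNA's strand. Capitals mark TGATGA, found within the first 30 bases, and CTGA, found within the last 15, which are common forms of the C and D boxes. The list opens with snR190 and U14 from a shared transcript and with the snR41, snR70 and snR51 cluster. Those that follow rose in rrp6Δ (snR58, snR48), in 4 of the 8 mutants (snR45) or most in rrp46-L191H (snR65, snR53, snR38), and 2 guides with opposite changes between alleles close it (snR18, snR40).
snR190: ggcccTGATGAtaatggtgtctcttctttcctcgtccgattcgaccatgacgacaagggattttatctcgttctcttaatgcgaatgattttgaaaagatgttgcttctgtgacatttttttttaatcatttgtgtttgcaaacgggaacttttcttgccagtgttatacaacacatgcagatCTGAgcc
snR128: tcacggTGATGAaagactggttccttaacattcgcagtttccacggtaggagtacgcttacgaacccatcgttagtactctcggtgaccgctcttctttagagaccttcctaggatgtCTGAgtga
snR41: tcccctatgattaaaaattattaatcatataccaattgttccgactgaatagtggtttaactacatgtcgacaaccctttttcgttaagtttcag
snR70: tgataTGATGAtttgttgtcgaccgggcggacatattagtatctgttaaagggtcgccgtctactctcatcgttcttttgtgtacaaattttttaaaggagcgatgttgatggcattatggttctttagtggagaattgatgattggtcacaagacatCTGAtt
snR51: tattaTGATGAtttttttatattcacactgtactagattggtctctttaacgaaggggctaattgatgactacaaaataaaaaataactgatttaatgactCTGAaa
snR58: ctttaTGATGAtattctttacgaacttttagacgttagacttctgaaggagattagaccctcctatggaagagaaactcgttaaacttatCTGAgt
snR48: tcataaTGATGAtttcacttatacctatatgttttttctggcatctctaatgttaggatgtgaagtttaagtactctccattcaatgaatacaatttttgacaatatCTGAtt
snR45: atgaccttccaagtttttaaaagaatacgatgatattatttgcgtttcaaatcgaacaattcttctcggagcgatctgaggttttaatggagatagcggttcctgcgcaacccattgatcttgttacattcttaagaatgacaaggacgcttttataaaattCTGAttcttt
snR65: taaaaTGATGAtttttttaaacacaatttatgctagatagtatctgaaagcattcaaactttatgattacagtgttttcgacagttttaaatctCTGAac
snR53: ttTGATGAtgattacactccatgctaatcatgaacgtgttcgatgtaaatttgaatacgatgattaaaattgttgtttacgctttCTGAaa
snR38: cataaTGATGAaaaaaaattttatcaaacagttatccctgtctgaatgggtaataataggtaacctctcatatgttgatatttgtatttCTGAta
snR18: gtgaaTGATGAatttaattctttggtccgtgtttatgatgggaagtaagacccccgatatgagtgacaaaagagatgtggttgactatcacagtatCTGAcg
snR40: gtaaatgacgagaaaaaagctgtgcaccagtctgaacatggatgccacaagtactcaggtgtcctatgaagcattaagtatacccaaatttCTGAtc

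They lie in R64, in the order shown, as snR190 at chrX:139761-139950 (minus strand), snR128 at chrX:139566-139691 (minus strand), snR41 at chrXVI:719148-719242 (minus strand), snR70 at chrXVI:718887-719050 (minus strand), snR51 at chrXVI:718700-718806 (minus strand), snR58 at chrXV:136088-136183 (minus strand), snR48 at chrVII:609584-609696 (plus strand), snR45 at chrXVI:821732-821903 (plus strand), snR65 at chrIII:177183-177282 (plus strand), snR53 at chrV:61699-61789 (plus strand), snR38 at chrXI:283185-283279 (plus strand), snR18 at chrI:142367-142468 (plus strand) and snR40 at chrXIV:89210-89306 (plus strand). Of the 47 members, 37 held TGATGA in this window, 45 held CTGA and 37 (78.7%) held both. Among the 29 H/ACA snoRNAs 0 held both. A window without these letters says nothing of the factor that binds there: snR4, snR45, snR40 and snR41 lacked TGATGA, and snR41 as annotated also lacked CTGA. Members were 78 to 490 bases long with a median of 98. By the annotation 6 lay in introns (snR18 in EFB1, snR24 in ASC1, snR38 in TEF4, snR39 in RPL7A, snR54 in IMD4, snR59 in RPL7B), 17 in 5 clusters with a shared transcript, and 24 apart from these. The snR17a interval overlaps a coding exon of IRC13 and that of snR60 a coding exon of YJL047C-A, on the same strand, so their reads cannot be assigned with certainty. The copies of U3 were 86.3% identical over aligned bases and snR39 and snR59 84.6%, and how reads fitting both were counted is not given in the sources used here.

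In the control strains the order of levels per kilobase was led by snR190, with 19520 CPM per kb over the 15 control libraries. It was followed by snR17a at 11100, snR4 at 5349, snR63 (a 25S guide) at 4105 and U14 at 2390 CPM per kb. All of these were longer than the median of 98 bases, and whether recovery of an RNA depended on its length was not tested. Apart from snR69, the lowest was snR73 at 3.68 CPM per kb. The control strains were not alike: for 24 of 46 measured members the RRP46 control had the highest mean, and for 18 of these all 3 RRP46 libraries lay above all 12 other control libraries. U14 was at 677, 566 and 621 CPM in RRP46, against 170, 188 and 167 CPM in RRP4. Genotype, mating type and any batch of a family cannot be told apart, so the effect of a mutant was tested against its own control, and mutants were compared directly only within a family.

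**Figure D1:**
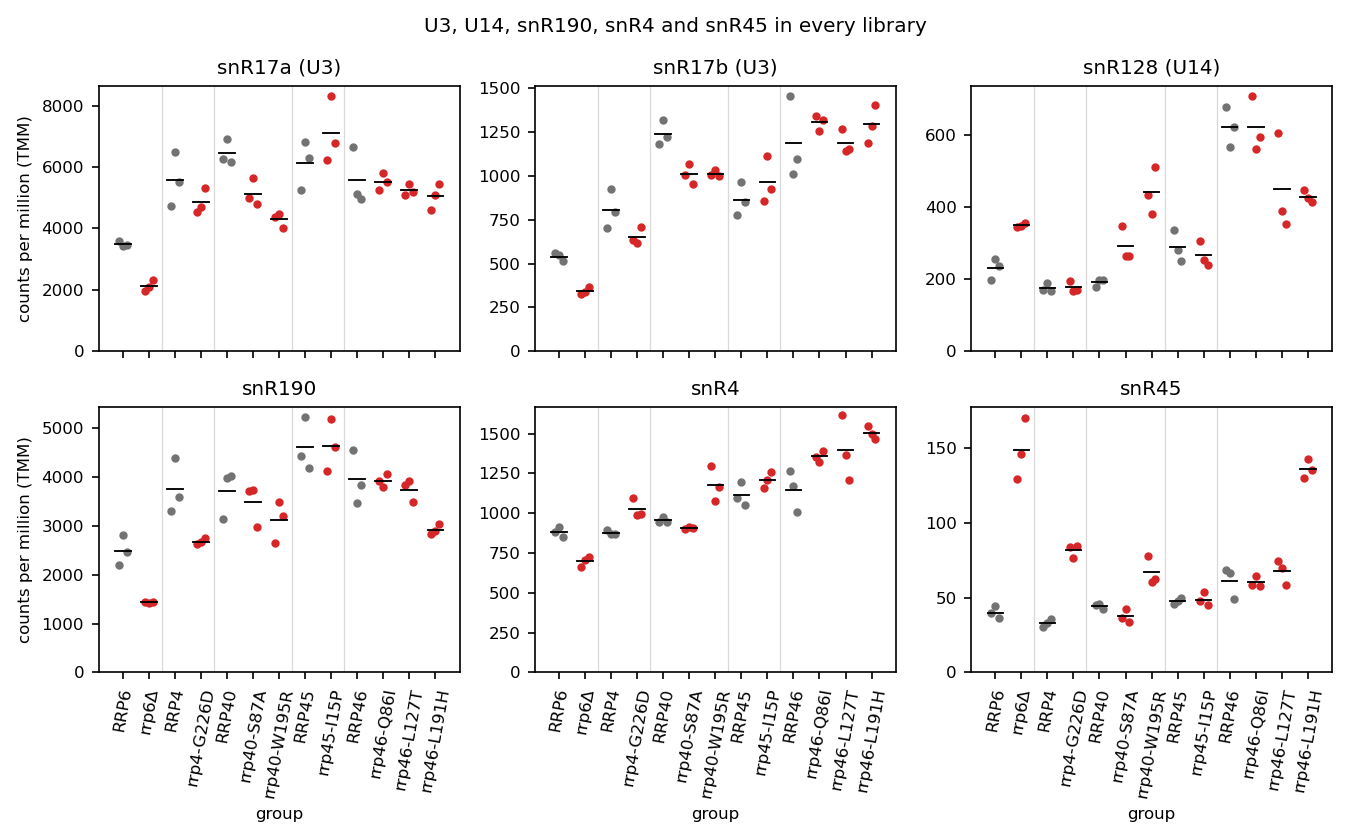
Level of U3, U14, snR190, snR4 and snR45 in every library, in CPM on a linear axis from 0, by group; points are the 3 libraries, black lines their mean, grey points controls and red points mutants, and grey lines part the families. U14 lies higher in the RRP46 family than in RRP4, and snR45 rises in rrp46-L191H, rrp40-W195R, rrp4-G226D and rrp6Δ.

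Under TMM scaling the strain without Rrp6 had the most C/D snoRNAs called changed. On library totals rrp40-W195R had more, with 41 called against 39 in rrp6Δ. Of 46 members tested in rrp6Δ, 32 were higher and 10 lower than in RRP6 (edgeR quasi-likelihood test, Benjamini-Hochberg adjusted p under 0.05), where 42.6% and 40.9% of all 7828 features tested were called higher and lower. The median log2 fold change was 0.81 over the members and 0.03 over all features, and the 29 H/ACA snoRNAs had 9 higher, 13 lower and a median of -0.11. All C/D snoRNAs together took 1.041% ± 0.0597 of counts in RRP6 and 1.304% ± 0.0912 in rrp6Δ (SD, n = 3). Leaving out U3 and snR190, which were lower in rrp6Δ under TMM scaling, they took 0.336% ± 0.0196 in RRP6 and 0.659% ± 0.0572 in rrp6Δ. Leaving out members that did not rise makes the rise of the rest larger by construction.

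The largest rises in rrp6Δ, among members with a mean of at least 10 CPM, were in methylation guides with genes of their own. The 25S guide snR58 was at 8.11, 8.09 and 6.83 CPM in RRP6 and at 38.9, 39.2 and 47.5 CPM in rrp6Δ. All rrp6Δ libraries were above all RRP6 libraries, a 5.52-fold difference (log2 2.46, SE 0.0953, adjusted p = 2.26e-11). For snR48, which guides methylation of 25S rRNA, the control libraries held 44.1, 52.0 and 44.1 CPM and the rrp6Δ libraries 206, 203 and 311 CPM. Library 3 was highest of these, and the groups did not overlap (log2 2.38, SE 0.229, adjusted p = 0.000400). The 25S guide snR66 (4.36-fold) and the 18S guide snR56 (3.99-fold) rose less far. The acetylation guide snR45 went from 39.5, 44.1 and 36.1 CPM to 129, 146 and 170 CPM, so that its lowest mutant library was well above the highest control (log2 1.92, adjusted p = 9.85e-06). Under 10 CPM, the 25S guide snR64 also rose (log2 2.15).

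The RNAs of precursor cleavage did not move together in rrp6Δ. U14 rose from 198, 255 and 236 CPM to 344, 347 and 354 CPM (log2 0.61, SE 0.0799, adjusted p = 2.60e-05), with no overlap. U3 was lower from both genes: snR17a went from 3574, 3409 and 3459 CPM to 1951, 2082 and 2326 CPM (1.63-fold lower, adjusted p = 2.02e-08), and snR17b fell by 0.64 on the log2 scale. All rrp6Δ libraries lay under all controls in both. The snR190 RNA was at 2193, 2815 and 2461 CPM in the control and at 1442, 1419 and 1447 CPM in rrp6Δ, a fall by 0.78 on the log2 scale (adjusted p = 4.27e-07). Also lower were the 25S guide snR63 (log2 -0.70) and snR4 (log2 -0.33). The 18S guide snR70 fell furthest, from 76.8, 101 and 94.0 CPM to 40.4, 37.0 and 37.4 CPM (2.35-fold lower, adjusted p = 6.28e-06), again without overlap.

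Most of these falls depended on how libraries were scaled. When log2 fold changes were computed on library totals, the median over all features moved from 0.03 to 0.63 in rrp6Δ, and 38 members were higher and 1 lower, against 74.2% and 14.4% of features. The 1 still lower was snR70 (log2 -0.63, adjusted p = 0.000682). On that scale snR17a (log2 -0.10), snR17b (log2 -0.04), snR190 (log2 -0.18) and snR63 (log2 -0.10) no longer passed, and snR4 was higher (log2 0.27, adjusted p = 0.000131). The same shift took this median from 0.00 to 0.17 in rrp46-L191H, from 0.02 to 0.36 in rrp40-W195R and from 0.02 to 0.35 in rrp4-G226D. On library totals 33 members were higher and 1 lower in rrp4-G226D, against 66.8% and 12.1% of features. In rrp40-W195R these numbers were 39 and 2 (63.6% and 7.87% of features), and in rrp46-L191H they were 27 and 9 (47.6% and 16.9% of features). The H/ACA snoRNAs moved with the scaling too, to 15 higher and 5 lower in rrp46-L191H, 20 and 3 in rrp40-W195R, 20 and 4 in rrp4-G226D, and 20 and 5 in rrp6Δ. A rise or fall given here is therefore relative to TMM-scaled RNA.

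**Figure D2:**
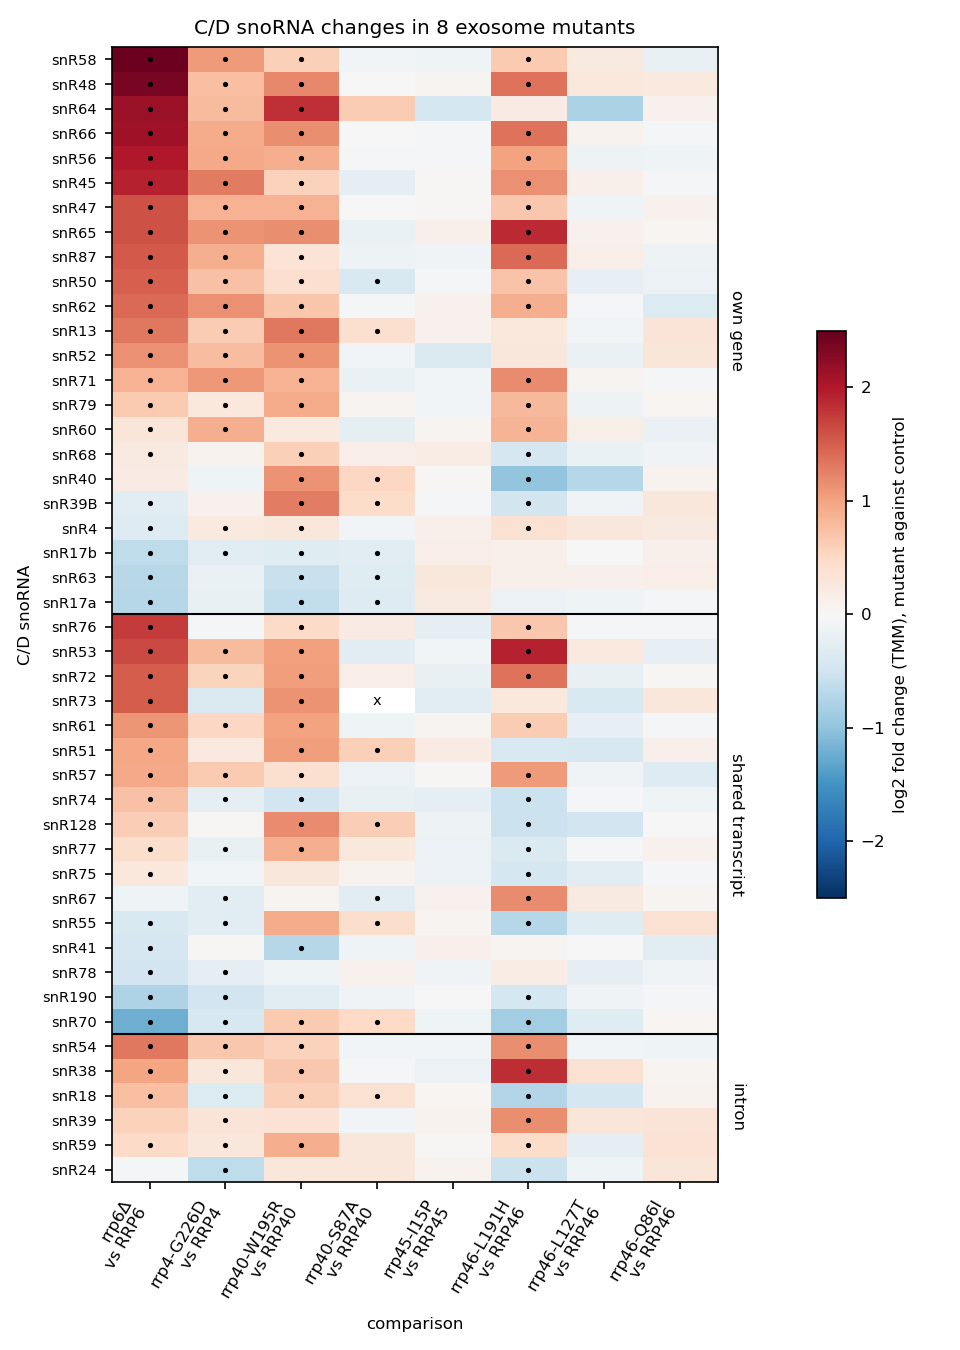
Log2 fold change (TMM scaling, colour from -2.5 to 2.5) of the 46 measured C/D snoRNAs, in rows, in the 8 mutants against their controls, in columns; rows are grouped by gene arrangement and sorted by the change in rrp6Δ, dots mark adjusted p under 0.05, and x marks snR73, not tested in rrp40-S87A. Red fills most rows of rrp40-W195R, rrp46-L191H, rrp4-G226D and rrp6Δ, and the columns of rrp45-I15P, rrp46-L127T and rrp46-Q86I have no dot.

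In rrp4-G226D, an allele of a cap subunit, 25 members were higher and 10 lower than in RRP4, where 36.1% and 35.9% of 7703 features were called in these directions. Of the 10 falls, only that of snR24 remained a fall past the threshold on library totals. The median was 0.27 over the members, 0.02 over all features and 0.08 over the H/ACA snoRNAs (12 higher, 9 lower). snR45 rose most, from 30.3, 33.0 and 36.0 CPM to 83.7, 76.5 and 84.3 CPM, with no overlap (log2 1.30, SE 0.0590, adjusted p = 1.49e-12). The 25S guides snR62 (log2 1.14), snR65 (log2 1.12) and snR71 (log2 1.09) came next.

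The falls in rrp4-G226D were smaller. The intronic 25S guide snR24 was at 11.9, 13.4 and 12.1 CPM in RRP4 and at 7.98, 7.53 and 8.52 CPM in the mutant, and the groups did not overlap (log2 -0.64, adjusted p = 8.95e-07). snR190 (log2 -0.48), snR70 (log2 -0.41) and the 25S guide snR18 (log2 -0.35) also fell, and these 3 did not pass on library totals, while snR24 did (log2 -0.31, adjusted p = 0.00258). U14 was at 170, 188 and 167 CPM and then 194, 165 and 170 CPM, overlapping, with a 95% interval of the log2 difference from -0.11 to 0.15. The U3 gene snR17a overlapped as well (log2 -0.19, adjusted p = 0.215), and without RRP4 library 1 it passed as lower (log2 -0.30, adjusted p = 0.00349). Its other copy snR17b passed narrowly (log2 -0.29, adjusted p = 0.04997), with overlap, and lost the call without RRP4 library 3 (log2 -0.30, adjusted p = 0.141) or without any of the mutant libraries, and without RRP4 library 2 its size was log2 -0.19.

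In rrp40-W195R, another cap allele, 33 members were higher and 5 lower than in RRP40, against 26% and 26.5% of 7498 features. The median was 0.66 over the members and 0.02 over all features, and 12 H/ACA snoRNAs were higher and 9 lower (median 0.21). U14 was among the 4 largest rises, from 178, 198 and 197 CPM to 431, 381 and 510 CPM, with no overlap (log2 1.19, SE 0.0981, adjusted p = 1.85e-05). The 25S guides snR13 (log2 1.31), snR39B (log2 1.27) and snR48 (log2 1.20) were the others, among members of at least 10 CPM; below that level snR64 rose by log2 1.82.

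Within rrp40-W195R the libraries differed. snR13 was at 79.8, 86.8 and 75.8 CPM in RRP40 and at 274, 123 and 212 CPM in the mutant, where library 2 was lowest yet above every control (adjusted p = 0.0164). Its call was lost without RRP40 library 2 or 3 (adjusted p = 0.0519 and 0.0585) or without mutant library 3 (adjusted p = 0.0810). The call of snR48 was lost without RRP40 library 3 (adjusted p = 0.0512) or mutant library 3 (adjusted p = 0.0673), and that of snR59, which guides a 25S site, without mutant library 3 (adjusted p = 0.0716). Without mutant library 2, the intronic guides snR24 (log2 0.48, adjusted p = 0.00554) and snR39 (log2 0.52, adjusted p = 0.00157) passed as higher, which they did not with it. The largest falls were in the 18S guide snR41 (log2 -0.71), snR17a (log2 -0.61), snR63 (log2 -0.56) and the 18S guide snR74 (log2 -0.48). Of these, snR41 was at 14.6, 16.3 and 14.7 CPM and then 12, 9.76 and 6.52 CPM, without overlap, and its call was lost without mutant library 2 (adjusted p = 0.0627). On library totals snR17a (log2 -0.28) and snR63 (log2 -0.23) stayed past the threshold, snR41 and snR74 did not.

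The other RRP40 allele, rrp40-S87A, shared its control libraries with rrp40-W195R and had 8 members higher and 5 lower, where 7.69% and 7.8% of 7385 features were called. Its median was -0.02, with -0.00 over all features. U14 was at 346, 265 and 264 CPM, above every RRP40 library (log2 0.62, SE 0.113, adjusted p = 0.0139). snR51, a guide to both rRNAs (log2 0.60), snR40, also a guide to both (log2 0.51), and snR70 (log2 0.50) rose as well. The largest falls were in the 25S guide snR50 (log2 -0.38), snR17a (log2 -0.32), snR63 (log2 -0.31) and snR17b (log2 -0.29). The calls of snR17a, snR50 and snR63 were lost without RRP40 library 2 (adjusted p = 0.0622, 0.0810 and 0.113), that of snR17a also without mutant library 3 (adjusted p = 0.0502), and that of snR63 also without mutant library 1 (adjusted p = 0.0543) or 3 (adjusted p = 0.0983).

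Set against each other, rrp40-W195R had 33 members higher and 3 lower than rrp40-S87A, against 18.6% and 20.2% of 7509 features, with a median of 0.64 over the members and 0.01 over all features. snR65 was at 9.76, 9.96 and 9.69 CPM in rrp40-S87A and at 27.1, 23.8 and 24.7 CPM in rrp40-W195R, so the groups were well apart (log2 1.35, SE 0.0820, adjusted p = 9.57e-07). snR48 (log2 1.23), snR66 (log2 1.18) and the 25S guide snR61 (log2 1.12) followed, and snR45 differed too (log2 0.82, adjusted p = 0.000194). The call of snR48 was lost without rrp40-S87A library 1 or 2 (adjusted p = 0.0630 and 0.0512). Without rrp40-W195R library 2, snR39 passed as higher (log2 0.60, adjusted p = 0.00182). The largest fall by the naming rule was snR17a (log2 -0.28, adjusted p = 0.0183), whose call was lost without rrp40-S87A library 2 (adjusted p = 0.0820) or rrp40-W195R library 3 (adjusted p = 0.0742).

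In rrp46-L191H, an allele of a core ring subunit, 24 members were higher and 12 lower than in RRP46, against 31.4% and 31% of 7550 features. The median was 0.42 over the members and 0.00 over all features, with 10 H/ACA snoRNAs higher and 8 lower (median 0.01). The 18S guide snR53 was at 8.34, 7.38 and 7.91 CPM in RRP46 and at 30.9, 30.7 and 28.4 CPM in the mutant, 3.81-fold higher with no overlap (SE of log2 0.0702, adjusted p = 4.63e-10). For snR65 the values were 17.2, 14.5 and 14.5 CPM and then 55.3, 54.9 and 57.2 CPM (log2 1.86, adjusted p = 4.57e-10). The intronic 25S guide snR38 (log2 1.84) and the 18S guide snR87 (log2 1.41) were next, and snR45 also rose (log2 1.15, adjusted p = 0.000351).

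The falls in rrp46-L191H included U14. It went from 677, 566 and 621 CPM to 446, 424 and 412 CPM, with every mutant library under every control (log2 -0.54, SE 0.0596, adjusted p = 5.75e-06). snR40 fell most, from 118, 106 and 120 CPM to 59.7, 59.4 and 55.4 CPM (1.97-fold lower, adjusted p = 1.06e-08). snR70 (log2 -0.87), snR18 (log2 -0.73), the 18S guide snR55 (log2 -0.71) and snR190 (log2 -0.44) fell as well. On library totals these stayed past the threshold except snR55, whose call was also lost when RRP46 library 1 (adjusted p = 0.0933) or 2 (adjusted p = 0.119) or any of the mutant libraries was left out. The rise of snR59 (log2 0.46) was lost without RRP46 library 2 (adjusted p = 0.0770) or any mutant library, and its size was log2 0.27 without RRP46 library 3. The values of U3 overlapped between the groups (snR17a log2 -0.15, adjusted p = 0.289; snR17b log2 0.12, adjusted p = 0.523). Without RRP46 library 1, snR17b passed as higher (log2 0.29, adjusted p = 0.00199).

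The remaining alleles changed little in this class. In rrp45-I15P, an allele of another ring subunit, edgeR called 0 of 46 members and 0.0266% of 7520 features. At an unadjusted p under 0.05 there were 8 members and 735 of the 7520 features, and DESeq2 called 0 members. U14 was at 335, 282 and 251 CPM in RRP45 and at 304, 254 and 239 CPM in rrp45-I15P, overlapping. Member log2 fold changes ran from -0.44 to 0.29.

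The alleles rrp46-L127T and rrp46-Q86I shared the RRP46 libraries with rrp46-L191H. For rrp46-L127T edgeR called 0 members, against 5.24% of 7494 features, and DESeq2 called 2 members. At an unadjusted p under 0.05 there were 4 members and 1630 of the 7494 features. U14 was at 604, 388 and 353 CPM in rrp46-L127T, where library 1 lay within the RRP46 range and the others under it (log2 -0.48, adjusted p = 0.333). Without library 1, 7 members were called, and U14 was among them (log2 -0.75, adjusted p = 0.00136), as was snR18 (log2 -0.70, adjusted p = 0.00996). That library held 4.24% of its counts in rRNA, against 3.04% and 3.19% in the other 2, and the part of this in the difference was not tested. For rrp46-Q86I edgeR called 0 members, against 0.515% of 7570 features, and DESeq2 called 3 members. At an unadjusted p under 0.05 there were 5 members and 984 of the 7570 features. Without RRP46 library 1 edgeR called 3, with snR17b (log2 0.30, adjusted p = 0.0161) and snR4 (log2 0.31, adjusted p = 0.0245) among them. Shares of all features called by DESeq2 or with a library left out are not given here. Whether members were called more often than other RNAs in those fits was therefore not tested.

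Compared directly, rrp46-L191H had 24 members higher and 2 lower than rrp46-L127T, against 25.6% and 25.9% of 7402 features, with a median of 0.65 over the members and -0.00 over all features. snR65 (log2 1.75), snR53 (log2 1.69), snR38 (log2 1.45) and snR66 (log2 1.26) led. For snR38 the values were 17, 19.4 and 16.2 CPM in rrp46-L127T and 50.3, 49.4 and 43.6 CPM in rrp46-L191H, without overlap (adjusted p = 5.56e-08). snR190 was lower (log2 -0.36, adjusted p = 0.000383). For U14 the difference had a 95% interval from -0.53 to 0.39 on the log2 scale, and it passed in the other direction without rrp46-L127T library 1 (log2 0.21, adjusted p = 0.00236). Without that library snR59 (log2 1.05, adjusted p = 0.000274), snR4 (log2 0.22, adjusted p = 0.00285) and snR17b (log2 0.17, adjusted p = 0.0250) also passed as higher.

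Across the 4 mutants with most calls (rrp40-W195R, rrp46-L191H, rrp4-G226D and rrp6Δ), 19 members were higher in all 4 and 0 were lower in all 4. The 19 were snR38, snR45, snR47, snR48, snR50, snR53, snR54, snR56, snR57, snR58, snR59, snR61, snR62, snR65, snR66, snR71, snR72, snR79 and snR87, most of them methylation guides, with snR45 an acetylation guide. On library totals these 19 and 5 more were higher in all 4. Over all 8 mutants, 13 members were called higher in 1 and lower in another, and 10 on library totals. These counts across mutants were not made over all features. Whether such recurrence is particular to C/D snoRNAs was therefore not tested. By gene arrangement, members apart from introns and clusters were mostly higher: 19 of 23 tested in rrp40-W195R, 14 in rrp46-L191H, 17 in rrp4-G226D and 17 in rrp6Δ. Of the 17 members in clusters, 10, 6, 4 and 11 were higher and 2, 7, 7 and 5 lower in the same mutants. On library totals the cluster members were 13, 8, 9 and 12 higher and 0, 4, 0 and 1 lower. These groups of members were compared by counts only.

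Members of a shared transcript differed in their change, and under TMM scaling in sign. In rrp6Δ snR190 fell while U14, which follows it on the same transcript, rose. In the snR41, snR70 and snR51 cluster, snR51 was at 19.4, 17.5 and 21 CPM in RRP6 and 35.6, 30.2 and 46.9 CPM in rrp6Δ (log2 0.97, adjusted p = 0.00427), and the members before it were lower (snR41 log2 -0.42, snR70 log2 -1.23). On library totals snR70 was the only one of these that was still lower past the threshold. Behind snR67, a 25S guide whose groups differed by log2 -0.10 in rrp6Δ without passing, snR53 rose (log2 1.66). The snoRNA at the 3′ end of the shared transcript had the highest log2 fold change of its cluster in 4 of 5 clusters in rrp40-W195R, rrp4-G226D and rrp6Δ, and in 2 of 5 in rrp46-L191H. The exception in rrp6Δ was the 7-gene cluster, where snR76, a 25S guide, rose most (log2 1.75). This way of ordering was chosen after the values were seen, and the difference between positions was not tested.

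**Figure D3:**
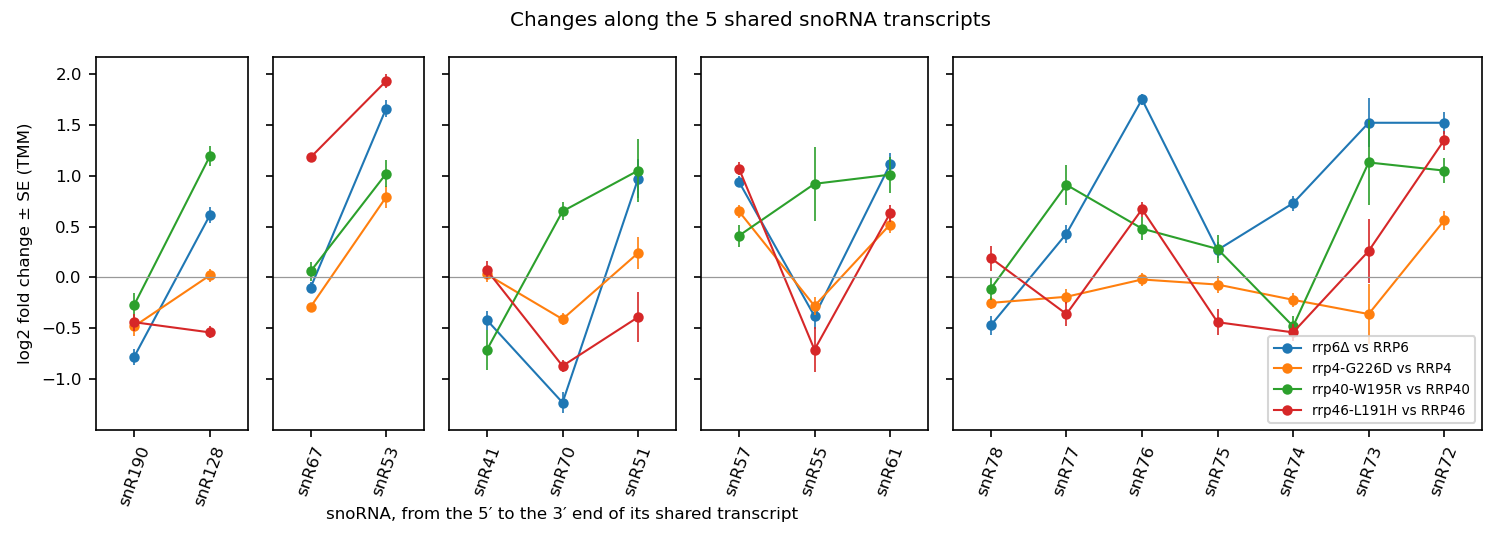
Log2 fold change with its standard error (vertical axis, TMM scaling) of each snoRNA in the 5 shared transcripts, ordered from the 5′ to the 3′ end, in 4 mutants (colours). In rrp6Δ the line ends higher than it starts in each cluster, as from -0.78 for snR190 to 0.61 for U14.

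Intronic snoRNAs and the mRNAs that host them changed in opposite directions in some strains and in the same direction in others. Of the 6 pairs, both RNAs were called with opposite signs for 2 in rrp46-L191H, 4 in rrp40-W195R, 3 in rrp4-G226D and 3 in rrp6Δ, and with the same sign for 2, 0, 3 and 0 in that order. In rrp6Δ snR18 rose (log2 0.76) while EFB1, which encodes a translation elongation factor subunit, fell (log2 -1.10). snR54 was at 16.7, 17.1 and 15.8 CPM in RRP6 and at 42.4, 39.9 and 40.4 CPM in rrp6Δ (log2 1.32), and its host IMD4, for an enzyme of GTP synthesis, fell by 0.85 on the log2 scale. The same signs were seen for snR38 (log2 0.99) and TEF4 (log2 -1.47). ASC1, a ribosomal scaffold gene, was 4.29-fold lower in rrp6Δ, while its snoRNA snR24 differed by log2 -0.05 without passing. In rrp46-L191H, snR18 fell by 0.73 on the log2 scale and EFB1 differed by log2 0.05, without passing. Among pairs with the same sign in rrp4-G226D, snR24 (log2 -0.64) and ASC1 (log2 -1.44) fell, as did snR18 (log2 -0.35) and EFB1 (log2 -0.60), while snR59 (log2 0.28) and RPL7B (log2 0.25), which encodes a ribosomal protein, rose. In rrp46-L191H snR24 (log2 -0.54) and ASC1 (log2 -0.82) fell, and snR59 (log2 0.46) and RPL7B (log2 0.31) rose. On library totals the falls of EFB1, TEF4 and IMD4 in rrp6Δ still passed, whereas in rrp40-W195R those of EFB1 (log2 0.13), IMD4 (log2 -0.01) and RPL7B (log2 0.03) did not. Host changes on that scale are not given here for rrp46-L191H and rrp4-G226D, so their pair counts hold for TMM scaling only. The snoRNA to host difference itself was not tested. Counting rules for reads that cross from intron to exon are not given in the sources used here.

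**Figure D4:**
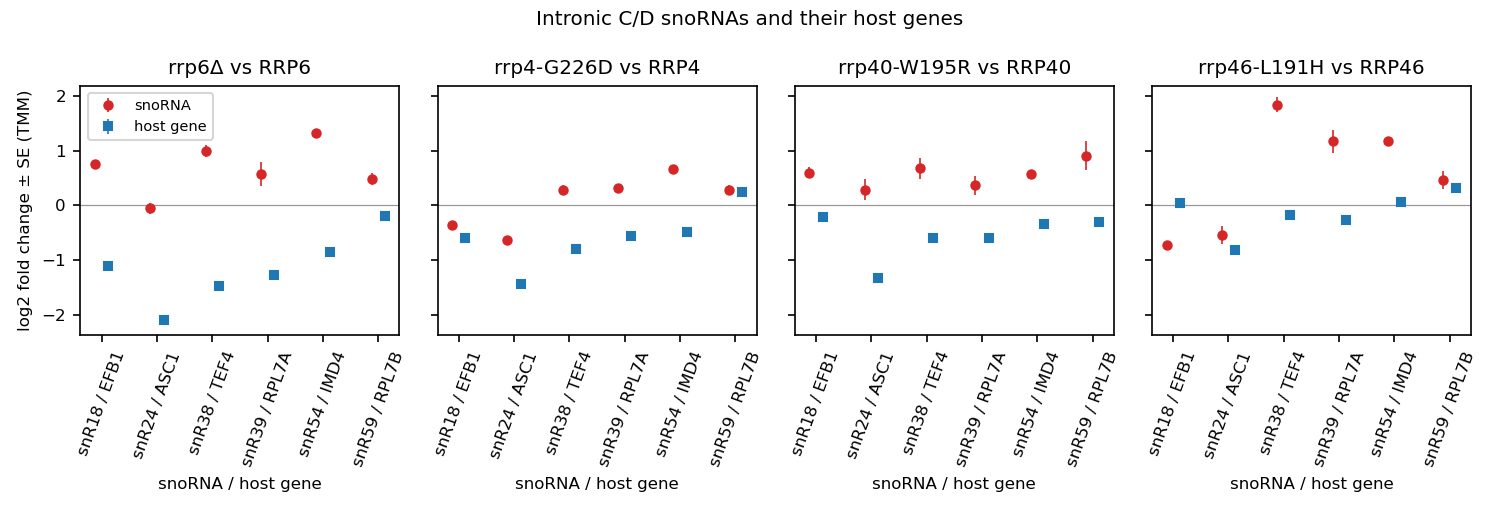
Log2 fold change with its standard error (TMM scaling) of the 6 intronic C/D snoRNAs (circles) and their host genes (squares) in 4 mutants. In rrp6Δ each circle lies above the square of its host, as for snR54 at 1.32 and IMD4 at -0.85.

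For part of the members the size of the change differed between rrp6Δ and the missense alleles. An interaction term over 12 libraries tested each difference. The effect of rrp4-G226D was higher than that of rrp6Δ for 8 members and lower for 29, against 27.2% and 21.4% of 7872 features. For rrp40-W195R these numbers were 9 and 16 (33.3% and 28.1% of 7857 features), and for rrp46-L191H 13 and 23 (35.7% and 35.6% of 7863 features). Counted either way, the share of members called was under that of all features for rrp40-W195R and not far above it for rrp46-L191H. On library totals the numbers were 2 and 32 for rrp4-G226D (11.6% and 46.9% of features), 4 and 17 for rrp40-W195R (19.3% and 45.4%), and 2 and 30 for rrp46-L191H (18.3% and 59.9%), so most of the higher effects depended on the scaling. snR58 was lower in all 3 tests, on either scale (log2 -1.42, -1.87 and -1.80; adjusted p = 4.69e-08, 3.26e-08 and 2.30e-09), and its own log2 changes were 0.66 in rrp46-L191H, 0.59 in rrp40-W195R, 1.07 in rrp4-G226D and 2.46 in rrp6Δ. The 3 tests share the RRP6 and rrp6Δ libraries. snR67 was higher in rrp46-L191H than in rrp6Δ by log2 1.28 (adjusted p = 7.27e-12; log2 0.84 on library totals), with 104, 101 and 92.6 CPM in RRP46 and 228, 227 and 219 CPM in rrp46-L191H.

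Between rrp40-W195R and rrp46-L191H, 7 members had opposite calls: U14, snR18, snR39B, snR40, snR68 (a 25S guide), snR70 and snR77 (an 18S guide) were higher in the former and lower in the latter. The difference of the effects passed for 24 members (12 in each direction; 16.6% and 18% of 7633 features were higher and lower), which included all 7. On library totals 14 members were higher and 8 lower (29.4% and 8.24% of features), and 6 of the 7 kept opposite calls, without snR77. It was largest for snR40 (log2 2.14, SE 0.159, adjusted p = 4.62e-06), at 33.8, 33.2 and 26.7 CPM in RRP40 and 72.9, 56.8 and 78.2 CPM in rrp40-W195R. The controls differed too: snR40 was at 106 to 120 CPM in RRP46, and both mutant groups lay between the 2 controls. For U14 the difference was log2 1.75 (SE 0.132, adjusted p = 2.81e-06), and the same order of levels held: RRP40 libraries reached 198 CPM, the means of rrp46-L191H and rrp40-W195R, whose libraries overlapped, were 427 and 441 CPM, and RRP46 had a mean of 621 CPM.

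**Figure D5:**
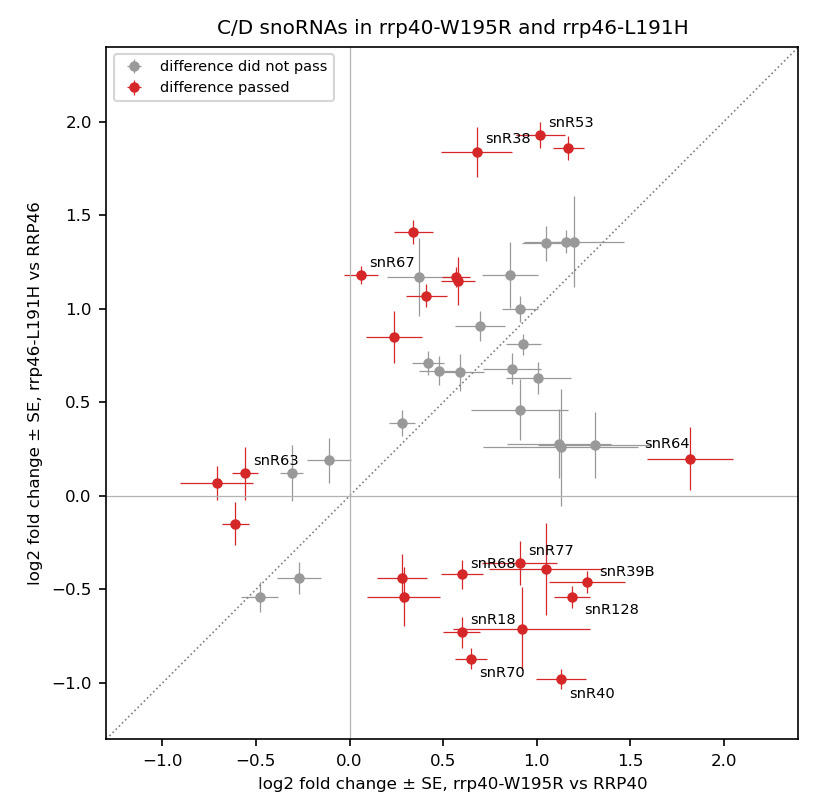
Log2 fold change with standard errors of each measured C/D snoRNA with rrp40-W195R on the horizontal and rrp46-L191H on the vertical axis, against their own controls; red marks an interaction with adjusted p under 0.05 and the dotted line equal effects. U14 (1.19 and -0.54) and snR40 (1.13 and -0.98) lie at the lower right, snR53 (1.02 and 1.93) at the top.

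Several members followed U14 over the strains. Over the 13 group means of log2 CPM, the members most like U14 were snR18 (Pearson r = 0.93), snR55 (0.91), snR51 (0.91) and snR40 (0.88). Over deviations from the group mean in 39 libraries, r with U14 was 0.78 for snR18, 0.60 for snR55, 0.27 for snR51 and 0.82 for snR40, and the highest values were 0.90 for snR70 and 0.83 for snR39B. These are descriptions: the points share libraries and scaling, and the first measure also holds the family differences among controls. Length went with the change in rrp6Δ at a Pearson r of -0.44 across 46 members, while the rank correlation was -0.14.

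For mRNAs of pathway proteins the direction differed between mutants and with the scaling. The mRNAs of all 4 core C/D proteins fell in rrp6Δ: NOP1 by 0.93, NOP56 by 1.07, NOP58 by 0.83 and SNU13 by 1.04 on the log2 scale. They fell in rrp4-G226D as well (log2 -0.41 to -0.56). In rrp40-W195R 3 of them fell, and NOP1 (log2 -0.08) did not pass. In rrp46-L191H, NOP58 rose (log2 0.25), SNU13 fell (log2 -0.18) and the others did not pass. The full list held 39 genes. It took in these 4 and genes for assembly, U3 proteins, processing, the exosome with its cofactor TRAMP, and partners of the guides. Over the 39, the numbers higher and lower were 24 and 7 in rrp40-W195R, 13 and 1 in rrp40-S87A, and 29 and 1 in rrp46-L191H. They were 5 and 0 in rrp46-L127T, 5 and 29 in rrp4-G226D, 4 and 31 in rrp6Δ, and 0 in rrp45-I15P and rrp46-Q86I. The shares of all features called are those given for each mutant above. On library totals these numbers became 36 and 0 in rrp46-L191H, 34 and 1 in rrp40-W195R, 17 and 6 in rrp4-G226D, and 26 and 11 in rrp6Δ. All 4 core proteins were lower in rrp6Δ on that scale too, and 3 were in rrp4-G226D, where NOP58 (log2 -0.08) did not pass. In rrp40-W195R only NOP56 (log2 -0.20) was still lower and NOP1 was higher (log2 0.25), and in rrp46-L191H NOP1, NOP56 and NOP58 were higher and SNU13 (log2 -0.01) did not pass. NRD1, for a termination factor of snoRNA genes, was the largest rise in rrp6Δ (log2 0.68) and rrp4-G226D (log2 0.69). TRF5, for a TRAMP poly(A) polymerase, was the largest rise in rrp40-W195R (log2 0.88), rrp40-S87A (log2 0.48), rrp46-L191H (log2 0.93) and rrp46-L127T (log2 0.50). The largest falls were NOP56 in rrp6Δ and both RRP40 alleles, SNU13 in rrp46-L191H, and the La protein gene LHP1 in rrp4-G226D (log2 -0.58).

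In the authors' deposited table, members called at their adjusted p under 0.05 numbered 34 higher and 6 lower in rrp40-W195R. These numbers were 33 and 9 in rrp6Δ, 25 and 10 in rrp4-G226D, and 23 and 9 in rrp46-L191H. For rrp40-S87A they were 4 and 5, for rrp46-L127T 3 and 2, for rrp46-Q86I 0 and 1, and for rrp45-I15P 0. Shares of all features called in the authors' deposited table are not given here. Whether C/D snoRNAs were called more often there than other RNAs was therefore not tested.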

How the data were processed

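The authors deposited raw counts of reads per feature for each of 39 libraries, and 8 comparison tables whose log2 fold changes, p-values and adjusted p-values are used only where the text names the authors' deposited table. The submitters' processing notes name STAR, featureCounts 1.22.2, StringTie 2.1.7, DESeq2 1.38.1 and build R64, with no roles; per the file headers, the counted alignments had marked duplicates. Strand setting and multimapped reads are not given in the sources used here, and reads of precursor and mature snoRNA over an annotated interval are not separated.

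Each comparison was fitted on its own 6 libraries (12 for an interaction) with edgeR 4.0.16 in R 4.3.3: default expression filter, TMM scaling, robust quasi-likelihood F test, two-sided, no covariate, Benjamini-Hochberg adjustment over all features, called at an adjusted p under 0.05. The interaction of rrp40-W195R with rrp46-L191H was added after seeing the data. SE is the standard error of a log2 fold change. The script was checked on simulated counts. Alternatives were DESeq2 1.42.0, library totals, TMM without snoRNA, rRNA and tRNA rows, no filter, a 2-fold minimum, a replicate block, a joint fit and each library left out.

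Named members were 6 always described RNAs, the 6 intronic ones, and in each comparison the 4 largest rises and falls among called members with a mean of at least 10 CPM and no overlap; of the pathway, the core proteins and the largest called rise and fall. Lists, rRNA targets and members were chosen with earlier results of these data known. Coordinates and sequences are RefSeq's for R64.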

Additional observations from a re-analysis of the deposited data

Results flagged for a closer look

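The effects of several alleles differed by an interaction test (edgeR quasi-likelihood, Benjamini-Hochberg adjusted). Of 46 measured C/D snoRNAs, the effect differed between rrp4-G226D and rrp6Δ for 37, against 27.2% and 21.4% of features higher and lower. Between rrp40-W195R and rrp6Δ it differed for 25 (33.3% and 28.1% of features), and between rrp46-L191H and rrp6Δ for 36 (35.7% and 35.6%). Between rrp40-W195R and rrp46-L191H it differed for 24 (16.6% and 18% of features). Counted either way, the share of members was under that of all features for rrp40-W195R against rrp6Δ. For rrp46-L191H against rrp6Δ the share of members was not far above that of all features. The acetylation guide snR4 was lower in rrp6Δ and higher in the missense alleles: its effect exceeded that of rrp6Δ by log2 0.54 in rrp4-G226D, 0.61 in rrp40-W195R and 0.71 in rrp46-L191H. For the intronic guide snR18 the effect differed from that of rrp6Δ by log2 -1.13 in rrp4-G226D and -1.49 in rrp46-L191H, and the effect of rrp40-W195R exceeded that of rrp46-L191H by 1.36. For U14 (snR128) the effect of rrp46-L191H differed from that of rrp6Δ by log2 -1.16, and that of rrp40-W195R from that of rrp46-L191H by 1.75. The sign of snR4 in rrp6Δ depended on the scaling, as given above; on library totals the 3 snR4 differences were 0.30, 0.34 and 0.28 and still passed. What the strain families contribute beside the alleles cannot be told apart.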

How the results depend on the processing

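Requiring a 2-fold change left 14 called members in rrp40-W195R, 0 in rrp40-S87A, 14 in rrp46-L191H, 5 in rrp4-G226D, 20 in rrp6Δ, 9 between rrp40-W195R and rrp40-S87A, and 12 between rrp46-L191H and rrp46-L127T; for the interactions it left 8, 11 and 12 against rrp6Δ (rrp4-G226D, rrp40-W195R, rrp46-L191H) and 13 between rrp40-W195R and rrp46-L191H. A joint fit of all libraries called 8 in rrp40-S87A and 6 in rrp46-L127T. DESeq2 called 2 in rrp46-L127T and 3 in rrp46-Q86I. With the replicate number as a block, 1 was called in rrp45-I15P, 3 in rrp46-L127T and 2 in rrp46-Q86I; same-numbered libraries did not deviate together (correlations from -0.0931 to 0.0893), so they share only a number. Leaving out each library in turn, the called members ranged from 33 to 40 in rrp40-W195R, 9 to 13 in rrp40-S87A, 32 to 37 in rrp4-G226D, 39 to 43 in rrp6Δ, 0 to 0 in rrp45-I15P, 33 to 37 in rrp46-L191H, 0 to 7 in rrp46-L127T, 0 to 3 in rrp46-Q86I, 26 to 39 between the RRP40 alleles and 24 to 37 between the RRP46 alleles, and for the interactions 33 to 38, 22 to 29, 30 to 34 and 18 to 27. The sign turned on library totals for snR24 (0.56) and snR4 (0.27) in rrp6Δ, for snR17b in rrp4-G226D (0.04), rrp40-W195R (0.02) and between the RRP40 alleles (0.25), for snR190 in the interaction of rrp46-L191H with rrp6Δ (-0.09), and for the median over members in rrp40-S87A (0.04), which also turned without RRP40 library 2 (0.02) or rrp40-S87A library 1 (0.01). U14 between the RRP46 alleles ran from -0.22 to 0.21 when a library was left out, turning without rrp46-L127T library 1. The causes were not tested. Shares of all features called under these alternatives are not given here, so the counts describe the members only. Some values rest on few counts, such as those of snR73, which held 3 to 79 counts per library.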
